A study of Rattus norvegicus with 4 samples.

Results

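Glutathione is the main small thiol of the cell and its chief electron donor against peroxides. A ligase and a synthetase make it from glutamate, cysteine and glycine, peroxidases spend it to reduce hydrogen peroxide or lipid hydroperoxides, and a reductase restores it with NADPH. In heart muscle, which carries a dense mitochondrial network, this cycle is a major route of peroxide removal. The 10 genes described here were chosen by name from the deposited gene table: Gclc, Gclm and Gss of synthesis, Gsr of reduction, Glrx, a glutaredoxin, and the peroxidases Gpx1, Gpx3, Gpx4, Gpx7 and Gpx8. All 10 were found among 17147 entries, and all 10 passed the filter on low values.

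The cells were neonatal rat ventricular myocytes, primary muscle cells of newborn rats grown in a serum-free medium with a Nutridoma supplement. They received 3 µM TMP195, a small molecule that occupies the catalytic site of class IIa histone deacetylases, or the solvent DMSO as vehicle, for 48 h. There were 2 libraries of total RNA in each group. The labels do not say whether they came from separate cultures or how many animals were pooled. The p-values of the limma fit rest mostly on the spread of genes of similar level (27.4 prior against 2 residual degrees of freedom). They measure spread between libraries and nothing that is known to be biological. The study has this 1 comparison, of transcripts with and without inhibition of the class IIa enzymes.

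The values are the authors' fragment counts, scaled by a factor near 1 for each library. The libraries held between 11768467 and 14232156 fragments, so a value of 100 rests on about 100 fragments and low genes are less precise. Cardiomyocyte markers stood high, with a summed value of 548163 and 560401 in the vehicle libraries and 511531 and 511632 with TMP195, and 12 of 12 were detected. Markers of other cells were present too. Fibroblast markers summed to 118518 and 114578 with vehicle and to 86771 and 89773 with TMP195, smooth muscle markers to 14510 and 14413 against 9683 and 10519, endothelial markers to 648.6 and 725.6 against 386.7 and 388.4, and macrophage markers to 490.2 and 439.2 against 554.5 and 470. Red cell markers were close to 0, with sums between 9.59 and 29.2. A sum is set mainly by the highest genes of its list and does not measure the content of a cell type. In the vehicle libraries the fibroblast marker Col1a1 alone was 69970 and 66449, and the smooth muscle marker Acta2 was 7848 and 8051.

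The proximal promoters of Gclm and Gpx3 are shown because these were the genes with the largest increase and the largest decrease among the 10. Each is the 250 bases before the RefSeq transcription start in assembly GRCr8, which may not be the build of the deposited table. Capitals mark the core of the antioxidant response element, the sequence that NRF2 binds.
Gclm, chr2:213031885-213032134, plus strand: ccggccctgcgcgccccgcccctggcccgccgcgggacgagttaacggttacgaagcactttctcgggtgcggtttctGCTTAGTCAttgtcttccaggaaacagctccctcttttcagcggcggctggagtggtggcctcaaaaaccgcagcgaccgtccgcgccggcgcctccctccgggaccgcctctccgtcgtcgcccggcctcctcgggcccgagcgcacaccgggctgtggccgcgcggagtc
Gpx3, chr10:39529085-39529334, plus strand: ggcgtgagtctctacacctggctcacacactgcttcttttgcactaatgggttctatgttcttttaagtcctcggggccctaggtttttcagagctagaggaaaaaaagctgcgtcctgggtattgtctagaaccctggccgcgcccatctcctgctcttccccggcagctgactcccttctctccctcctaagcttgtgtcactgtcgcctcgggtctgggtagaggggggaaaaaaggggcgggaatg
RefSeq promoter windows of 300 bases, from 250 before to 50 after the start, were found for 8 of the 10 genes. Gsr and Gpx8 had none and were not searched. The 8 genes made 10 windows. The core TGACNNNGC, searched on both strands, occurred in 1 of them, that of Gclm, as TGACTAAGC on the minus strand from 172 to 164 bases before the start. It occurred in 12.1% of all 33469 windows. Neither the loose pattern used here for MEF2 factors (CTA, any 4 bases, TAG) nor TGATGNAA, a composite site bound by ATF4, was found in the 10 windows. These patterns occurred in 3.84% and 3.98% of all windows. A match describes letters only.

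Both subunits of the first enzyme of glutathione synthesis and the reductase rose with TMP195, and of the 5 peroxidases 2 fell and 0 rose. Of the 10 genes, 3 rose (Gclc, Gclm and Gsr), 2 fell (Gpx3 and Gpx7) and 5 did not pass the test (limma, adjusted p under 0.05 over 12689 genes). Over all genes tested, 9.93% were higher and 10.3% were lower by the same rule. The 10 genes were chosen with earlier results of these data known, so this comparison is a description and not a test. The groups did not overlap for 7 of the 10 genes, against 56.7% of all genes tested, a background so high that this count says little about the 10. The median log2 fold change was 0.04 over the 10 genes and -0.01 over all genes tested. The count of genes that rose in the limma fits was 0 when vehicle 1, vehicle 2 or TMP195 2 was left out and 2 when TMP195 1 was, and the count that fell was 0, 0, 0 and 1 in the same order. In these fits 5, 4, 5 and 6 of the 10 genes had an unadjusted p under 0.05.

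**Figure D1:**
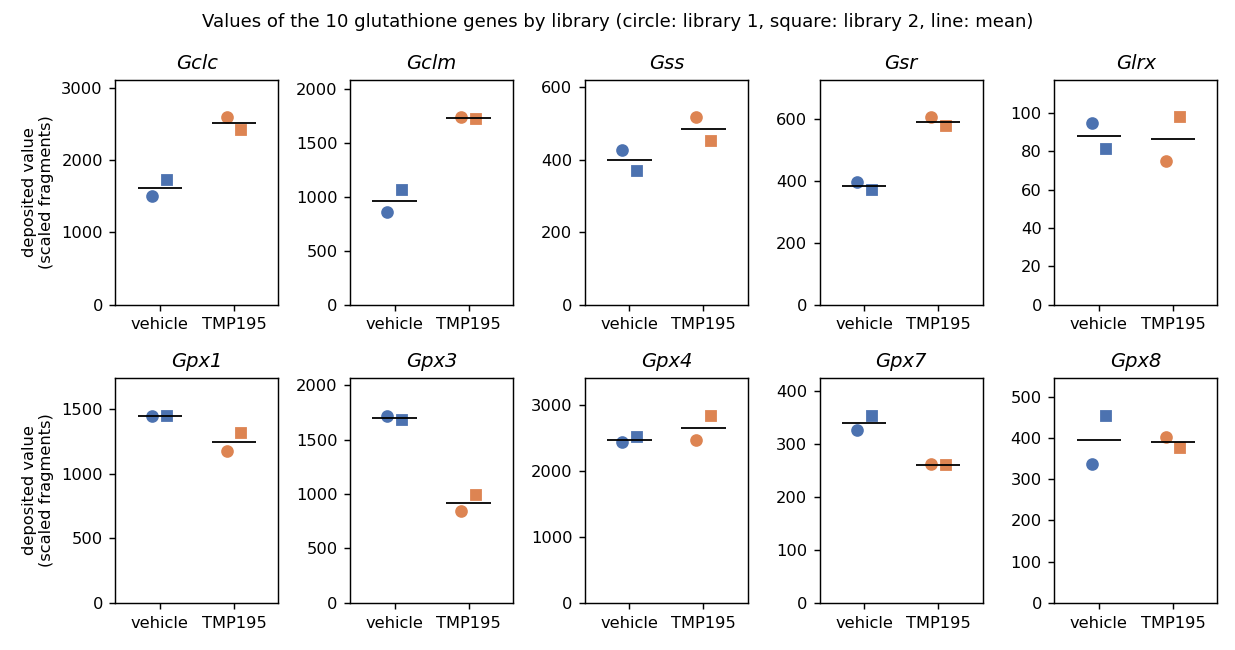
Deposited value (scaled fragments, linear axis from 0) of each of the 10 genes in the 2 vehicle and 2 TMP195 libraries, with circles for library 1, squares for library 2 and a line at the group mean. Gclc, Gclm, Gss and Gsr were higher in both TMP195 libraries than in both vehicle libraries, Gpx1, Gpx3 and Gpx7 were lower, and Glrx, Gpx4 and Gpx8 overlapped.

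Glutamate-cysteine ligase catalyses the first and rate-limiting step of synthesis, and both of its subunits rose. Gclm encodes the modifier subunit, which raises the affinity of the enzyme for glutamate. Its value was 861 and 1066 in the vehicle libraries and 1740 and 1725 in the TMP195 libraries. The TMP195 libraries lay close together and well above both vehicle libraries, which differed more from each other. This was a 1.81-fold increase (95% interval 1.58 to 2.06; limma adjusted p = 3.73e-08).

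Gclc encodes the catalytic subunit, which binds the substrates and carries out the reaction. Its value was 1502 and 1727 with vehicle and 2599 and 2428 with TMP195. Both treated libraries again stood above both controls, and the distance between the groups was larger than the distance within either. The increase was 1.56-fold (95% interval 1.39 to 1.75; limma adjusted p = 6.79e-07). For both subunits vehicle 1 was the lower of the controls.

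The 2 subunits can be set against each other per length, as FPKM (fragments scaled to gene length and library size, from the authors' deposited table). The FPKM ratio of Gclm to Gclc was 1.27 and 1.37 in the vehicle libraries and 1.48 and 1.57 in the TMP195 libraries. The modifier transcript was thus the more abundant of the pair in all 4 libraries, and its ratio was higher in both treated ones. With 2 libraries a group the exact two-sided permutation test cannot give a p below 0.333, so this shift in ratio was not tested further.

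Gss encodes glutathione synthetase, which adds glycine in the second step. Its value was 426.7 and 369.7 with vehicle and 516.7 and 450.8 with TMP195. The groups did not overlap, but the lower treated library was near the higher control, and the gene did not pass (1.21-fold, 95% interval 1.02 to 1.45; limma adjusted p = 0.111). On the log2 scale the change was 0.28, and it was 0.18 when vehicle 2 or TMP195 1 was left out and 0.38 when vehicle 1 or TMP195 2 was. The FPKM ratio of Gclc to Gss was 2.08 and 2.76 with vehicle and 2.97 and 3.18 with TMP195, higher in both treated libraries.

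Gsr encodes glutathione reductase, which returns oxidised glutathione to its reduced form. Its value was 396.4 and 370.7 with vehicle and 606.4 and 576.4 with TMP195. The libraries of each group lay close together, and the groups were far apart. The increase was 1.54-fold (95% interval 1.31 to 1.81; limma adjusted p = 0.000143), much like that of Gclc, and the difference between these 2 increases was not tested.

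Glrx encodes the cytosolic glutaredoxin that removes glutathione from protein cysteines. It had the lowest values of the 10, 94.8 and 81.1 with vehicle and 74.7 and 97.8 with TMP195. The groups overlapped, with both the highest and the lowest value in a treated library. The fold change was 0.975 (95% interval 0.685 to 1.39; limma adjusted p = 0.945), so a change as large as that of Gss, 1.21-fold, lay within the interval.

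**Figure D2:**
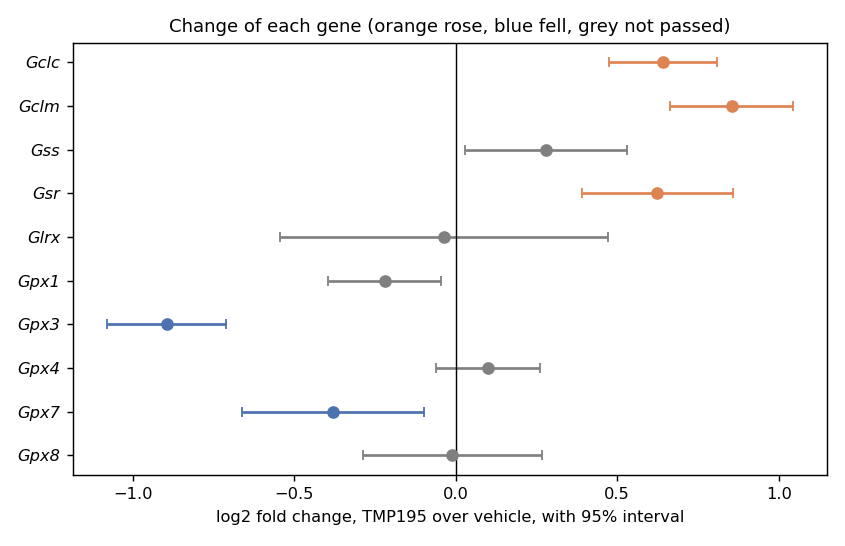
Log2 fold change of each gene, TMP195 over vehicle, from the limma fit on log2(value + 1), with its 95% interval; orange points rose, blue points fell and grey points did not pass the adjusted p of 0.05. Gclm (0.85), Gclc (0.64) and Gsr (0.62) stand to the right of 0, Gpx3 (-0.90) and Gpx7 (-0.38) to the left.

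Among the peroxidases, the secreted enzyme fell most. Gpx3 encodes the extracellular glutathione peroxidase, a selenoprotein best known from blood plasma. Its value was 1721 and 1680 in the vehicle libraries and 842.8 and 990.7 in the TMP195 libraries. Both treated libraries were far below both controls, which hardly differed, and the treated mean was 53.9% of the vehicle mean (log2 fold change -0.90, SE 0.09; limma adjusted p = 9.09e-09).

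Gpx7 and Gpx8 encode peroxidases of the endoplasmic reticulum that carry cysteine in place of selenocysteine. Gpx7 had values of 326.2 and 353.9 with vehicle and of 261.9 and 259.9 with TMP195. The treated libraries were nearly equal and below both controls, and the gene fell by 0.38 on the log2 scale (SE 0.14; limma adjusted p = 0.0496). This call lay at the threshold and ended with a pseudocount of 0.1 (adjusted p = 0.0567) or of 10 (adjusted p = 0.057), without the filter on low values (adjusted p = 0.0718), under the replicate block (adjusted p = 0.062), with scaling by median of ratios (adjusted p = 0.0513) and without any 1 of the 4 libraries (adjusted p from 0.204 to 0.255).

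Gpx8 had values of 337.6 and 453.9 with vehicle and of 401.6 and 376 with TMP195. The vehicle libraries enclosed both treated ones, so the spread between controls exceeded any difference between groups (0.993-fold, 95% interval 0.82 to 1.2; limma adjusted p = 0.973). Its direction followed the control that was kept. The log2 fold change was -0.22 without vehicle 1 and 0.20 without vehicle 2.

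Gpx1, the abundant selenium-containing peroxidase of cytosol and mitochondria, had values of 1444 and 1450 with vehicle and of 1175 and 1313 with TMP195. Both treated libraries were lower, yet they differed from each other more than the controls did. The gene did not pass (0.858-fold, 95% interval 0.76 to 0.969; limma adjusted p = 0.0694). The size depended on the treated library kept, with a log2 fold change of -0.22 in all, -0.14 without TMP195 1 and -0.30 without TMP195 2, and the gene did not pass in either fit (adjusted p from 0.156 to 0.403 without each library in turn). It passed with scaling by library total (adjusted p = 0.0388), with limma-voom (adjusted p = 0.0312) and with a stricter minimum of 100 on the mean value (adjusted p = 0.0407).

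Gpx4 encodes the selenoprotein that reduces lipid hydroperoxides within membranes and guards cells against ferroptosis, an iron-dependent form of cell death. Its values were the highest of the peroxidases, 2431 and 2512 with vehicle and 2470 and 2838 with TMP195. The lower treated library lay between the controls and the other stood above them. The fold change was 1.07 (95% interval 0.958 to 1.2; limma adjusted p = 0.423), an interval that leaves out a rise or fall as large as those of Gclm or Gpx3.

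Of the selenium-containing peroxidases, Gpx1 and Gpx3 were lower in both treated libraries than in both vehicle libraries, and Gpx4 was not. The FPKM ratio of Gpx4 to Gpx3 was 2.65 and 2.81 with vehicle and 5.5 and 5.37 with TMP195. The ratio of Gpx4 to Gpx1 was 1.69 and 1.74 with vehicle and 2.11 and 2.17 with TMP195. Both ratios were higher in the treated libraries, by more than the spread within a group, and 0.333 is the smallest p that the exact two-sided test allows. Summed over the 5 peroxidases, FPKM was 559.6 and 578.8 with vehicle and 486.1 and 544.9 with TMP195. The share of Gpx4 in that sum was 45.7% in each vehicle library and 53.5 and 54.8% with TMP195, and that of Gpx3 was 17.2 and 16.3% with vehicle and 9.72 and 10.2% with TMP195.

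**Figure D3:**
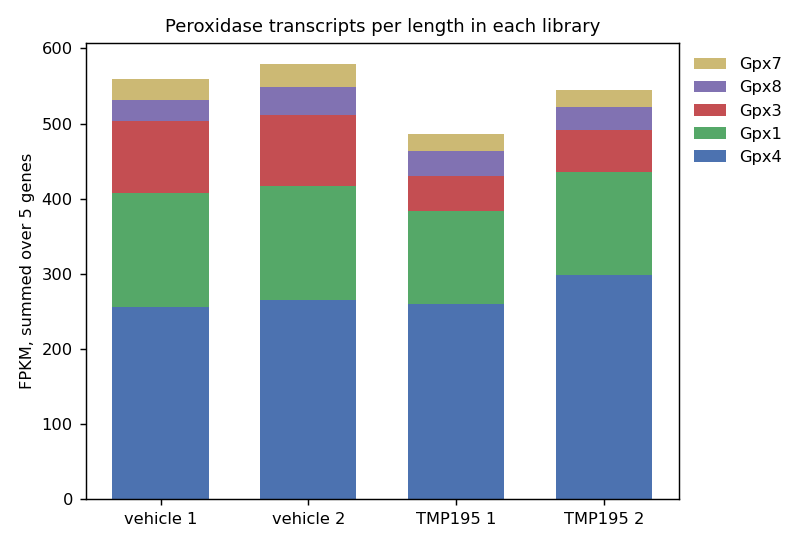
FPKM of the 5 peroxidase genes, stacked, in each library (authors' deposited FPKM, linear axis from 0). The Gpx3 segment is smaller in both TMP195 libraries (47.2 and 55.5) than in the vehicle libraries (96.5 and 94.2), while the Gpx4 segment is 255.9 and 264.7 with vehicle and 260 and 298.4 with TMP195.

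Some markers of fibroblasts, smooth muscle and endothelium were lower in the same libraries in which Gpx3 and Gpx7 were lower. Of 12 fibroblast markers 7 fell and 0 rose (median log2 fold change -0.45, none at 0), of 7 smooth muscle markers 5 fell and 0 rose (median -0.51), and of 8 endothelial markers 2 fell and 0 rose (median -0.52). Of 12 cardiomyocyte markers 2 fell and 1 rose (median -0.06), and 0 of 7 macrophage markers passed in the limma test, which called 20.3% of all genes, with none at an unadjusted p under 0.05. The part of these cells in the decrease of Gpx3 and Gpx7 was not tested, and in bulk RNA fewer cells of a type and less RNA per cell cannot be told apart.

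Levels can be compared between genes per length, as FPKM. In vehicle cells Gpx4 was highest with an FPKM of 260.3 ± 6.28, followed by Gpx1 with 151.7 ± 0.449 and Gpx3 with 95.3 ± 1.63 (SD, n = 2 each). Gclm (53.3 ± 8.01) and Gclc (40.4 ± 3.98) came next, then Gpx8 (32.8 ± 6.82), Gpx7 (29.1 ± 1.67), Gss (16.9 ± 1.71), Gsr (16.6 ± 0.783) and Glrx (6 ± 0.662). The vehicle libraries of Gclc and Gpx8, of Gpx8 and Gpx7 and of Gss and Gsr overlapped. Within each vehicle library Gclc was above Gpx8, and Gpx8 was above Gpx7, narrowly so in vehicle 1 (28 against 27.9). Gss was above Gsr in vehicle 1 and below it in vehicle 2. With 2 libraries the order within those pairs is not settled. Gpx4 stood at the 96.5th percentile of the 10673 genes in the FPKM table and Glrx at the 30.2nd.

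With TMP195 the order of the upper genes changed. Gclm (95.8 ± 0.57) and Gclc (62.8 ± 3.01) lay above Gpx3 (51.4 ± 5.87; FPKM, SD, n = 2 each), with no overlap between the libraries of any of these 3 genes, whereas Gpx3 had been above both in vehicle cells. Gsr (25.5 ± 0.914) lay above Gpx7 (22.3 ± 0.119) and Gss (20.5 ± 1.98) in both treated libraries. Gpx4 and Gpx1 remained the 2 highest and Glrx the lowest in all 4 libraries.

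**Figure D4:**
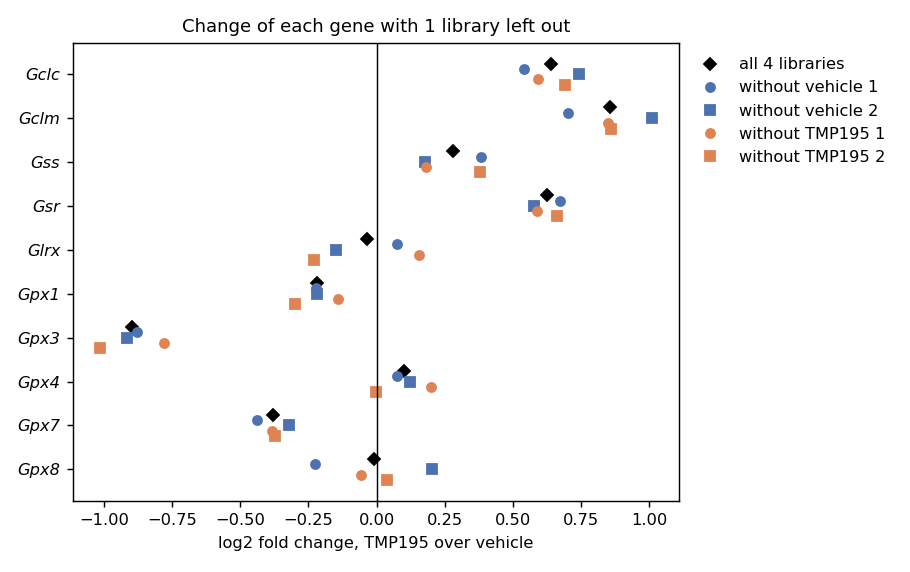
Log2 fold change of each gene with all 4 libraries (black) and with 1 library left out (blue for a vehicle, orange for a TMP195 library). Gclc, Gclm, Gss and Gsr stay above 0 and Gpx1, Gpx3 and Gpx7 below 0 in all 5 fits, while Glrx, Gpx4 and Gpx8 fall on either side.

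When single libraries were left out, the sizes of the changes moved within the ranges below and most adjusted p-values rose above 0.05. The log2 fold change of Gclm ranged from 0.70 to 1.01, of Gclc from 0.54 to 0.74, of Gsr from 0.58 to 0.67 and of Gpx3 from -1.01 to -0.78. Without vehicle 1, vehicle 2 or TMP195 2 the adjusted p of these 4 genes lay between 0.0619 and 0.183, and limma then called 0 genes of any kind while 2589 to 2772 had an unadjusted p under 0.05. Without TMP195 1, Gsr was the only one of the 4 that did not pass (adjusted p = 0.0639). With a minimum of 100 on the mean value, which was added once the data had been seen, all 4 passed without each library in turn (adjusted p from 2.86e-21 to 0.00203). Each fit without 1 library leaves a group of 1, which is assumed to vary like the other group and like genes of similar level, so these p-values do not measure replication.

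Genes around glutathione were read from 9 further lists, which cover its supply, use and breakdown, selenoproteins and partners of Gpx4 in ferroptosis. These lists were chosen with earlier results of these data known, so their counts are a description and not a test. They held 83 tested genes in all, of which 26 rose and 3 fell (limma, against 9.93% and 10.3% of all genes tested). In the fits without vehicle 1, vehicle 2 or TMP195 2 these counts were 0, and without TMP195 1 they were 11 and 0. Cysteine supply had 6 of 12 genes higher and 0 lower, with a median log2 fold change of 0.22. Slc7a11 encodes the light chain of the cystine importer and Slc3a2 its heavy chain, which is not particular to that importer. Mean vehicle FPKM was 4.64 for Slc7a11 and 165.2 for Slc3a2. The Slc7a11 value was 522.5 and 612.9 with vehicle and 1193 and 1056 with TMP195 (limma adjusted p = 1.67e-08), and that of Slc3a2 was 3801 and 3894 against 7924 and 8035 (limma adjusted p = 1.59e-12), with ratios of means of 1.98 and 2.07.

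NADPH is the electron donor of glutathione reductase. Of 9 tested genes of enzymes that make NADPH or feed its production, 4 rose and 0 fell (median log2 fold change 0.25), led by the isocitrate dehydrogenase gene Idh1 (0.65) and the malic enzyme gene Me1 (0.41). The increase of Gsr (0.62) was near that of Idh1. Of 8 transport genes 3 rose and 0 fell, among them Abcc4 (0.59), an export pump, and Slc25a39 (0.52), which carries glutathione into mitochondria. Of 8 glyoxalase and related enzymes 2 rose and 0 fell, Hagh (0.53), which releases glutathione at the end of the glyoxalase route, and Gsto1 (0.37), an omega class transferase.

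Breakdown genes showed no common direction. Of 11 tested, 1 rose and 1 fell. Chac1, which cleaves glutathione in the cytosol, had values of 539.5 and 453.9 with vehicle and of 913.9 and 1240 with TMP195 (log2 fold change 1.10, limma adjusted p = 2.86e-08). Oplah, which returns 5-oxoproline to glutamate, fell by 0.46 on the log2 scale. Of the other glutaredoxin and peroxidase genes 0 of 4 passed in the limma test, with 0 at an unadjusted p under 0.05. Glrx5 (0.13) and Glrx3 (0.10) had the smallest p, and Gpx2 was near 0 in all libraries, with values from 0 to 2.11.

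**Figure D5:**
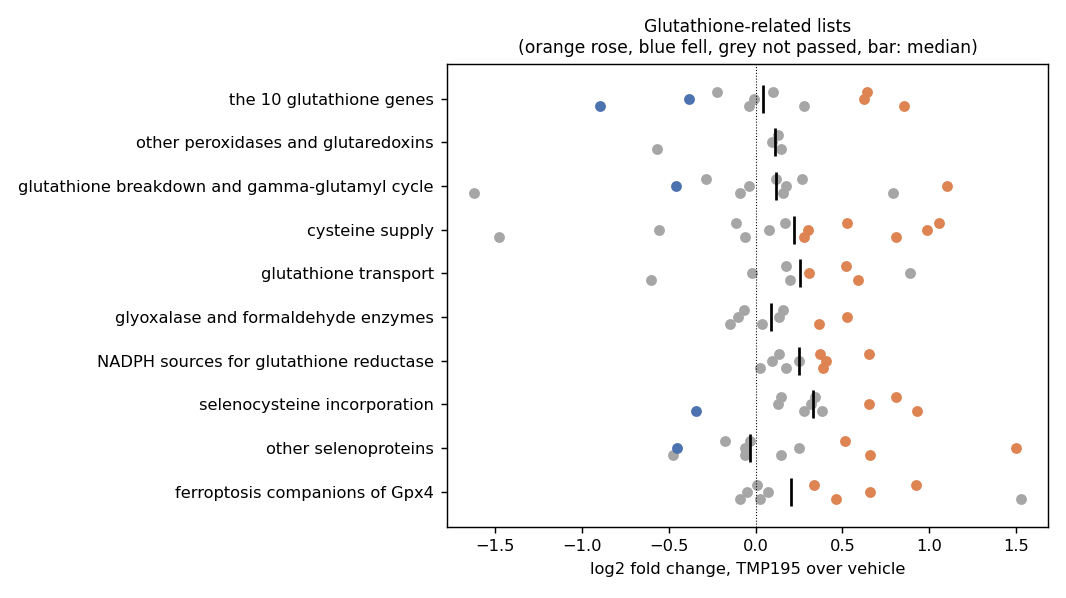
Log2 fold change, TMP195 over vehicle, of each tested gene in the 10 glutathione genes and the 9 further lists, with a black bar at each list's median; orange points rose, blue points fell and grey points did not pass. Cysteine supply, with 6 genes higher, has a median of 0.22, and the NADPH list, with 4 higher, has one of 0.25.

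Gpx1, Gpx3 and Gpx4 need selenocysteine, which is inserted at a UGA codon by dedicated factors. Of 10 tested genes of that machinery 3 rose and 1 fell (median log2 fold change 0.33). The gains were in Sars (0.93), Secisbp2l (0.81) and Scly (0.65). Sars charges serine onto tRNAs in general, including that for selenocysteine. Eprs (0.82) and Lars (0.72), which charge other tRNAs, rose too, and the remaining genes of such enzymes were not counted. Secisbp2l is a relative of the factor that binds the selenocysteine insertion element, and Scly releases selenium from selenocysteine. The 6 that did not pass were Secisbp2, Sepsecs, Pstk, Eefsec, Trnau1ap and Sephs2 (limma adjusted p from 0.0519 to 0.654). Sephs1 fell (-0.34), and the selenophosphate synthetase gene Sephs2 had values of 349 and 382.3 against 399 and 399.9 (log2 fold change 0.13, limma adjusted p = 0.532). Of 11 other selenoprotein genes 3 rose and 1 fell. Txnrd1, a cytosolic thioredoxin reductase, had the largest rise, with a ratio of means of 2.82, followed in p by Selenos, listed as Vimp, a selenoprotein of the endoplasmic reticulum (log2 fold change 0.52), while Selenop, the secreted selenium carrier listed as Sepp1, fell by 0.45 on the log2 scale. Both secreted selenoproteins named here, Gpx3 and Selenop, were thus lower in both treated libraries, with Selenop at 983.3 and 1034 against 746.1 and 729.9.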

How the data were processed

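Per the labels' protocols, an Ovation kit turned total RNA into libraries. The submitters' processing notes name Cufflinks. Aligner, version, build and annotation: not given in the sources used here. In the gene table the unit is a signal that the authors deposited, fragment counts times a factor for each library: 99.3 to 99.5% of values were whole multiples of a step of 0.948, 1.05, 0.879 or 0.959 (within 0.1). These steps give the depths. The authors' sheets add FPKM for 10673 genes, an unadjusted p-value and, for higher and lower genes, a ratio of mean FPKM.

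Log2(value + 1) was fitted with limma 3.58.1 in R 4.3.3, with treatment as the only term, a trended variance, no further scaling and a mean value of 1 or more (2 residual and 27.4 prior degrees of freedom). Benjamini-Hochberg adjustment ran over 12689 genes. Groups came from the titles. The fit was tested on simulated data with the same dispersion for every gene. That checks the code, and not the calls in these data or the fits without 1 library. The vehicle libraries differed beyond sampling noise (chi-square 4.77 per gene), as did the TMP195 libraries (5.76), so none was a copy of its partner. The test cannot tell whether 2 libraries came from the same culture or RNA.

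The planned count models and TMM scaling were not run because the values are not raw counts. The members and lists were chosen with earlier results of these data known. All 10 genes are named, with up to 2 genes of smallest p from each further list. Scly, Sephs1, Sephs2, Gpx2 and Selenop were added after their values were seen. So were Eprs, Lars, Col1a1, Acta2, the genes of selenocysteine insertion that did not pass and the rest of the ferroptosis list. Without strand, overlapping genes cannot be told apart.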

Additional observations from a re-analysis of the deposited data

How the results depend on the processing

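Gclc, Gclm, Gsr and Gpx3 kept direction and call in all 9 alternatives that used 4 libraries; Gss, Gpx4 and Gpx8 did not pass in any of them. The count of genes that fell, 2 in the main analysis, was 1 with a pseudocount of 0.1, with one of 10, with median-of-ratios scaling (added after seeing the data), when low values were not filtered, and under the replicate block, where Gpx7 was lost. It was 3, with Gpx1 added, under library-total scaling, limma-voom and a minimum mean value of 100. The numbers were not taken as pairs: same-numbered deviations correlated at 0.00472, and under the block 3 genes rose, 1193 of all genes were higher and 1266 lower.

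With 1 library left out, also with a minimum mean value of 100 (added after seeing the data), the 10 genes gave 0 to 4 higher and 0 to 2 lower, all genes 0 to 1086 higher and 0 to 1082 lower, and the further lists 0 to 26 higher and 0 to 3 lower; without TMP195 1, with no raised minimum, all genes gave 322 and 406 and the lists 11 higher. The cause was not tested. Direction turned for Glrx without vehicle 1 (0.075) and without TMP195 1 (0.156; range -0.229 to 0.156), for Gpx4 without TMP195 2 (range -0.001 to 0.2), and for Gpx8 without vehicle 2 (0.202) and without TMP195 2 (0.037; range -0.224 to 0.202). Count models and TMM scaling were not run. Glrx had the lowest values; how far depth limits it was not tested.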

Other observations

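Genes that act beside Gpx4 in ferroptosis were read as a further list. Of 10 tested, 4 rose and 0 fell in the limma test, with a median log2 fold change of 0.21. Of all genes tested, 9.93% rose and 10.3% fell. The 4 that rose were Ftl1, Fth1, Tfrc (0.34) and Slc40a1 (0.66), all genes of iron handling. The other 6 did not pass. These were Acsl4 (-0.05), Lpcat3 (0.07), Aifm2 (0.03), Dhodh (-0.09), Ncoa4 (0.01) and Gch1 (1.53, on values from 0 to 7.91). The ferritin chains Ftl1 (0.92) and Fth1 (0.46), which store iron, had the smallest p. Ftl1 had values of 14419 and 15986 with vehicle and of 26900 and 30854 with TMP195, beside 2431 and 2512 against 2470 and 2838 for Gpx4.

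The authors' deposited table gives an unadjusted p for each of the 10 genes and places 3 of them on its sheets of changed genes. A Welch test on the deposited FPKM, which takes its spread from each gene alone, gave the same p for all 10. Gclc (p = 0.0283, ratio 1.56) and Gsr (p = 0.00961, ratio 1.54) are on the sheet of higher genes and Gpx3 (p = 0.0451, ratio 0.539) on that of lower genes in the authors' deposited table. Gclm is on neither sheet, with p = 0.0829 in the authors' deposited table, although its increase was the largest of the 10 in the limma fit. Its vehicle libraries, at 861 and 1066, differed more than its TMP195 libraries. Gpx7 (p = 0.109) is also on neither sheet of the authors' deposited table.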
